A study of Rattus norvegicus with 6 samples.

Results

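The genes described here are those of antigen presentation in the rat: the RT1 genes, which form the rat major histocompatibility complex (MHC), together with 10 genes whose products build, load or control MHC molecules. They were taken from a table of 32883 genes by name, as every row whose name begins with RT1- and the rows B2m, Tap1, Tap2, Tapbp, Erap1, Calr, Canx, Pdia3, Nlrc5 and Cd74. This gave 41 genes, of which 31 are RT1 rows, 21 of class I and 10 of class II. The rule uses names alone, but the list was drawn up with the contrast between the oligo pools already known, so the fold changes and calls below describe that contrast and support nothing beyond it.

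The samples were wild type GH4C1 cells, a rat pituitary tumour line, long established, whose lineage makes growth hormone and prolactin. All were treated with psoralen, which crosslinks paired strands of nucleic acid, so untreated cells and input RNA were not part of the comparison. RNA was pulled down with oligo pool A or oligo pool B, each represented by 3 libraries, to find RNAs directly bound to the long noncoding RNA Neat1. The labels do not say which sequences a pool holds or whether either was meant as the control, so "higher with pool A" means only that more of the RNA was recovered with that pool. Nothing in the labels says whether the libraries came from separate cultures, and p-values then measure only the spread between these libraries, which may be technical.

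MHC class I molecules consist of a polymorphic heavy chain and the invariant light chain beta-2 microglobulin, and they show peptides from inside the cell to cytotoxic T cells. Their peptides are carried into the endoplasmic reticulum by the transporter Tap1-Tap2 and are fitted by a loading complex of tapasin, calreticulin and the oxidoreductase Pdia3, after calnexin has helped the chain to fold. MHC class II molecules, with the invariant chain Cd74 and the exchange factor DM, belong mainly to professional antigen-presenting cells, while most nucleated cells make class I. In the rat, RT1-A genes are the classical class I genes, and the CE, M, N, S and T24 genes are further class I genes of the same complex.

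Class I rows can share reads, so what the upstream stretches of some of them look like is shown first, with the letters of a searched motif in capitals. Upstream windows of 250 bases from RefSeq (assembly GRCr8) were matched by symbol for 34 of the 41 genes, including 18 of the 21 class I rows. The assembly used for the count table is not given in the sources used here. The motif GGGATTCCC, a core of the kappa B site of class I enhancers, was found on either strand in 91 of 33469 such windows (0.272%). Of the 18 class I windows, 4 hold it. Each is given 5′ to 3′ on the strand of the gene, with 40 bases before the site and 12 after it, at chr20:4907044-4907104 (+ strand) for RT1-A1, chr20:4872658-4872718 (+) for RT1-A2, chr20:3385152-3385212 (- strand) for RT1-CE10 and chr20:3509329-3509389 (-) for RT1-CE4.
RT1-A1: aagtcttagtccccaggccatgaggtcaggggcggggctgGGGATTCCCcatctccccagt
RT1-A2: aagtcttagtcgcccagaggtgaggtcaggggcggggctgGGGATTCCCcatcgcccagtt
RT1-CE10: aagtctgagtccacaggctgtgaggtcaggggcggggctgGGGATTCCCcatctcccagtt
RT1-CE4: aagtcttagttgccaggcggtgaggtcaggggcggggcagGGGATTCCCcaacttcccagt
Over the 40 bases before the site, pairs of these 4 rows are equal at 33 to 36 positions. The rows were chosen for the shared motif, the other class I windows were not compared, and these bases are not those the reads come from. How reads that match several copies were counted is not given in the sources used here, so the values of single RT1 rows are uncertain, and sums over a class are given beside them.

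A second motif, GAAANNGAA, from the core of the interferon-stimulated response element, was found in 2717 of the 33469 windows (8.12%) on either strand. It lies in 7 of the 34 matched windows, including 3 of the 18 of class I (RT1-N3, RT1-S2 and RT1-S3) and that of Tapbp. The remaining windows, shown here, are those of B2m, Tap1 and Tap2, the light chain and the peptide transporter. Their stretches, with 40 bases before the match and 12 after it, are at chr3:129549140-129549200 (+) for B2m, chr20:4668643-4668703 (-) for Tap1 and chr20:4652317-4652377 (-) for Tap2. The capitals in Tap1 are the reverse complement of the motif.
B2m: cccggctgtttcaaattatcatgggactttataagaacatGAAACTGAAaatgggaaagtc
Tap1: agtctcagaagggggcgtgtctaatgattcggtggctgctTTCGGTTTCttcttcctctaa
Tap2: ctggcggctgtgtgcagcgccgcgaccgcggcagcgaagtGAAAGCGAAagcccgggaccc
The longer motif CTGATTGG, the Y box of class II promoters, contains ATTGG, the reverse complement of CCAAT. It was found in 1068 of the 33469 windows (3.19%) and in 7 of the 9 matched class II windows, against 4 of the 18 of class I. These matches describe letters and not binding, and pull-down counts do not measure transcription.

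Each library held between 1826390 and 3685899 counts, a 2.02-fold range, and the 41 genes took between 0.104% and 0.142% of them. Levels are given as CPM, a row's count divided by all counts of its library and scaled to a common total, with no correction for gene length, so genes are not ranked by level. Where no read was counted, up to 3 counts could have been missed, or between 0.814 and 1.64 CPM by library, counting error only. A log2 fold change sets pool A against pool B, so that a negative value means more RNA with pool B. It comes from edgeR's quasi-likelihood test on the whole table, and a gene is called at a Benjamini-Hochberg adjusted p under 0.05. Of 8 pituitary markers, Prl, Chga and Scg2 were higher with pool A (log2 fold changes of 0.83, 0.63 and 0.77), Gh1 and Pou1f1 were not called, Pcsk1 was too thin to test, with 18, 7 and 23 counts in pool A and 0, 0 and 1 in pool B, and Ghrhr and Drd2 were at 0 in all libraries. Of the 5 markers tested, 3 were thus called higher with pool A, against 18.6% of all tested genes. The summed level of the 8 markers was between 4271 and 4413 CPM in pool A and between 2938 and 3170 CPM in pool B. What part this has in the results below was not tested.

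Enough counts for the test were present for 25 of the 41 genes, which passed edgeR's expression filter of 3.59 CPM in at least 3 libraries. Of these, 7 reached that level in every library of 1 pool but not of the other: RT1-M6-1, RT1-N3, RT1-S3, RT1-T24-3, RT1-CE3 and Tap2 through pool B, and RT1-DMa through pool A. Genes that pass in this way are tested because a pool is high, so the calls of RT1-M6-1, RT1-N3 and RT1-DMa are given as description and counts that hold them support nothing. Past the threshold, pool A gave more of 6 of these genes and pool B more of 9. Over all 11582 genes tested the shares were 18.6% for pool A and 22.0% for pool B, 40.6% in all. With total counts alone in place of TMM scaling the split of the members was 5 and 11, and with upper-quartile factors it was 6 and 6. The calls over all 11582 genes moved too. For pools A and B they were 1722 and 2902 with total counts alone, and 2515 and 2251 with upper-quartile factors. Separate CPM ranges in the pools were seen for 19 of the 25, against 49.1% of all tested genes. The plot of fold changes sets the calls by role: the calls in class I rows are in favour of pool B, and most of those among the loading genes are in favour of pool A.

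**Figure D1:**
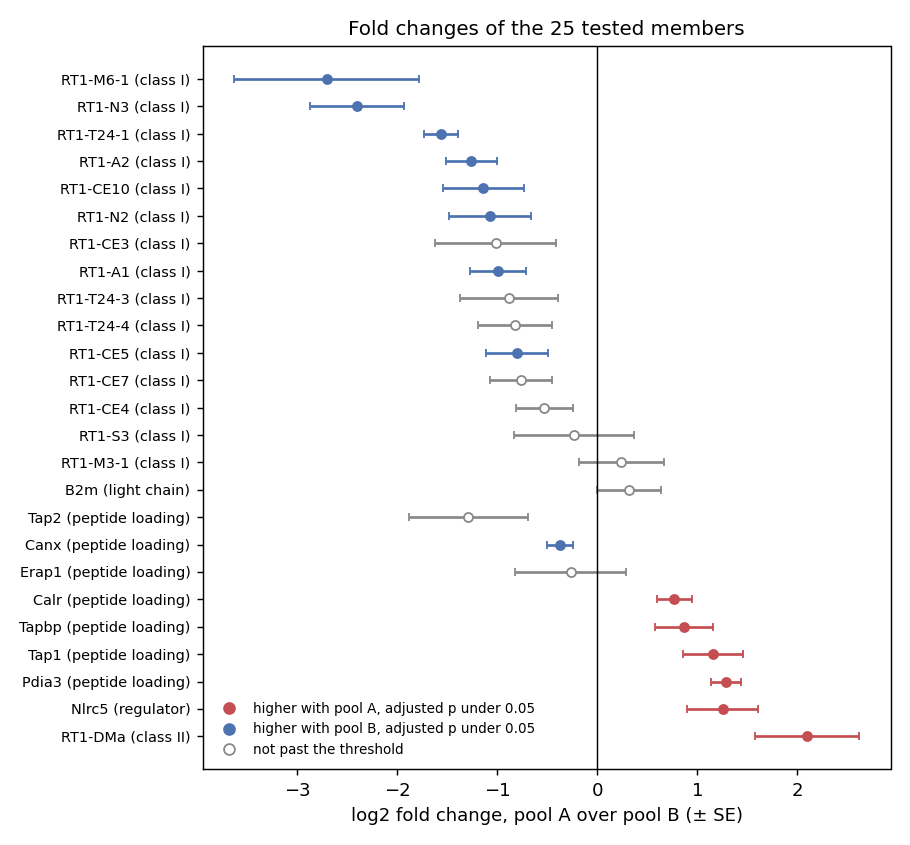
Log2 fold change (pool A over pool B, horizontal axis) with its standard error for each of the 25 tested genes, grouped by role, with filled points for genes past an adjusted p of 0.05. RT1-M6-1 at -2.70 lies lowest and RT1-DMa at 2.10 highest, and of the 15 class I rows only RT1-M3-1 lies above 0.

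Summed over all 21 rows, which no expression filter chose, the RT1 class I heavy chains were recovered more with pool B. The sum had 215, 184 and 188 CPM in pool A and 456, 445 and 494 CPM in pool B. All pool B libraries stood above all pool A libraries, at 2.15 times the pool A level in the fit. The log2 fold change of the sum was -1.10 ± 0.13 (SE; edgeR adjusted p = 1.31e-07). Without RT1-T24-1, the row with the most counts, it was -0.93 ± 0.15 (SE). Row by row, 8 of the 15 class I rows tested were higher with pool B past the threshold (22.0% of all tested genes were) and none was higher with pool A (18.6% of all tested genes were). The count was 4 with pool A replicate 3 left out and 5 with pool B replicate 2 left out. In all, 14 of the 15 had a fold change below 0, and the median was -0.99 against 0.02 for all tested genes. The filter favoured that direction in 5 of them, RT1-M6-1, RT1-N3, RT1-S3, RT1-T24-3 and RT1-CE3, so these counts and the median are a description only. Of the 10 rows that reached the filter level in all libraries, a choice that also leaves out rows low in either pool, 6 were called higher with pool B, 9 were below 0 and the median was -0.91. Because copies can share reads, the rows are not separate observations.

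**Figure D2:**
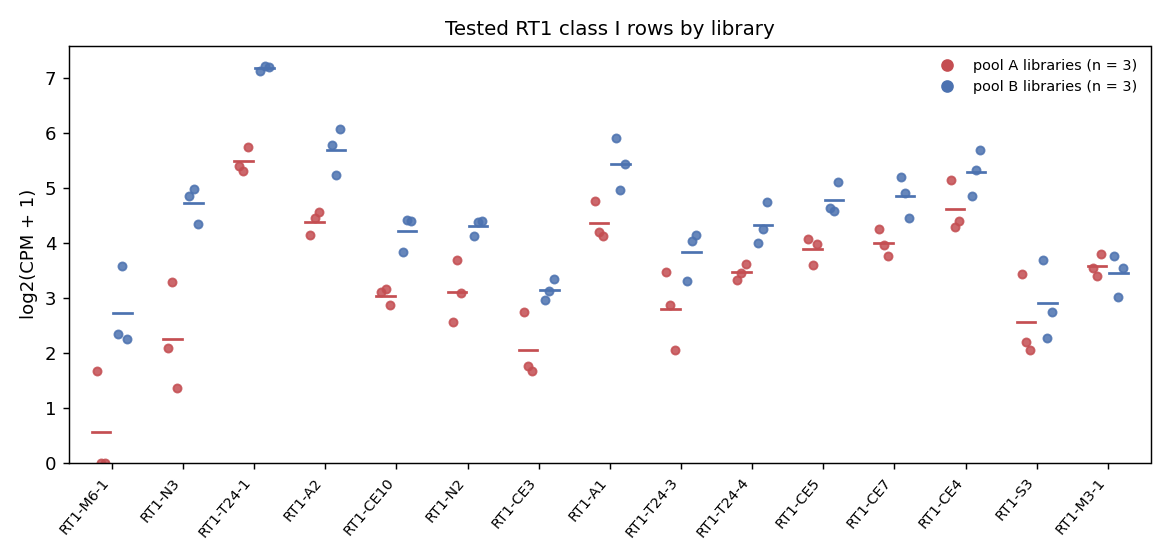
Level of each tested RT1 class I row in every library, as log2(CPM + 1), with a short bar at the mean of the 3 libraries of a pool on that scale. The pool B points of RT1-T24-1 lie together above all its pool A points, while the pools mix for RT1-T24-3, RT1-CE4, RT1-S3 and RT1-M3-1.

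The classical genes RT1-A1 (ENSRNOG00000038999) and RT1-A2 (ENSRNOG00000030712) were both higher with pool B. RT1-A2 had 16.6, 21.0 and 22.6 CPM in pool A and 53.9, 36.7 and 66.2 CPM in pool B. The pools did not overlap, and the log2 fold change was -1.26 ± 0.26 (SE; edgeR adjusted p = 0.000252). RT1-A1 had 26.0, 17.4 and 16.3 CPM in pool A and 58.6, 30.1 and 42.4 CPM in pool B. In the fit the log2 fold change was -0.99 ± 0.28 (SE; edgeR adjusted p = 0.00566), and the adjusted p became 0.0728 without pool B replicate 1, its highest library. The sum of both rows was 2.18 times higher with pool B in the fit.

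Among the rows outside RT1-A, RT1-T24-1 (ENSRNOG00000032596) had the smallest standard error of the tested class I rows. It had 41.0, 38.4 and 52.7 CPM in pool A and 138, 148 and 145 CPM in pool B. In the fit the log2 fold change was -1.56 ± 0.17 (SE; edgeR adjusted p = 1.67e-08). RT1-T24-4 and RT1-T24-3 did not pass the threshold, although RT1-T24-4 did with total counts alone (adjusted p = 0.0403) and without pool B replicate 1 (0.0484). RT1-T24-4 had 8.95, 9.89 and 11.3 CPM in pool A and 15.0, 18.1 and 25.7 CPM in pool B. RT1-T24-3 had 10.04, 6.33 and 3.14 CPM in pool A and 8.86, 15.3 and 16.6 CPM in pool B, so its pools overlapped. With the 3 T24 rows summed, the log2 fold change was -1.40 ± 0.16 (SE). RT1-T24-1 alone took 22.7% ± 4.8 (SD, n = 3) of the class I counts in pool A and 31.0% ± 2.0 (SD, n = 3) in pool B.

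Both N rows were higher with pool B. RT1-N3 (ENSRNOG00000000795) had 3.26, 8.70 and 1.57 CPM in pool A and 27.9, 30.7 and 19.3 CPM in pool B. It had a log2 fold change of -2.40 ± 0.47 (SE; edgeR adjusted p = 0.000149), which was -3.23 without pool A replicate 2 and -1.95 without pool A replicate 3. RT1-N2 had 4.88, 11.9 and 7.53 CPM in pool A and 16.4, 19.7 and 20.1 CPM in pool B. In the fit the log2 fold change was -1.08 ± 0.41 (SE), and its edgeR adjusted p of 0.0373 rose above the threshold with upper-quartile factors and in 4 of the fits that left out a library (replicates 1 and 3 of pool A, 2 and 3 of pool B), up to 0.161.

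Of the CE rows, RT1-CE10 and RT1-CE5 passed the threshold and RT1-CE7, RT1-CE3 and RT1-CE4 did not. RT1-CE10 had 7.60, 7.91 and 6.27 CPM in pool A and 13.3, 20.3 and 20.1 CPM in pool B, and RT1-CE5 had 15.7, 11.1 and 14.7 against 23.9, 23.0 and 33.3 CPM. The call of RT1-CE10 was lost without pool A replicate 1 or 3 or pool B replicate 2 or 3, with an adjusted p up to 0.0964, and that of RT1-CE5 in 7 of its 14 refits, up to 0.214. RT1-CE7 lay just past the threshold on the other side, with 17.9, 14.6 and 12.5 CPM in pool A, 35.4, 29.0 and 20.8 CPM in pool B and an edgeR adjusted p of 0.0501. RT1-CE3 had 5.70, 2.37 and 2.20 CPM in pool A and 6.82, 7.67 and 9.08 CPM in pool B. RT1-CE4 overlapped between the pools, with 34.2, 18.6 and 20.1 CPM against 27.9, 38.9 and 50.7 CPM, and passed the threshold without pool A replicate 1 (adjusted p = 0.0327). RT1-CE7 passed it with total counts alone (0.0203) and with either pool A replicate 1 (0.0473) or pool B replicate 3 (0.0276) left out. Summed over the 6 CE rows, the log2 fold change was -0.76 ± 0.18 (SE; edgeR adjusted p = 0.0015).

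Among the M and S rows, counts were few. RT1-M6-1 had 8, 0 and 0 counts in pool A and 12, 20 and 10 counts in pool B, an edgeR adjusted p of 0.0203 that became 0.168 without pool B replicate 2, 0.119 without pool A replicate 2 and 0.103 without pool A replicate 3. Its fitted log2 fold change of -2.70 ± 0.92 (SE) was -6.96 without pool A replicate 1, where pool A has no count left, so its size is not determined. RT1-M3-1, the counterpart of a mouse gene that presents N-formylated peptides, had 10.6, 9.49 and 12.9 CPM in pool A and 12.6, 7.12 and 10.6 CPM in pool B, with overlapping pools. RT1-S3 overlapped as well, with 9.77, 3.56 and 3.14 CPM against 11.9, 3.83 and 5.67 CPM. The other 6 class I rows were not tested. RT1-M2, RT1-M4 and RT1-M5 had no count in any library, and RT1-M6-2, RT1-S2 and RT1-CE1 had at most 6 counts in a library.

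B2m, the light chain that every class I molecule needs, did not differ past the threshold. It had 23.3, 16.2 and 19.1 CPM in pool A and 18.4, 13.7 and 19.7 CPM in pool B. The ranges overlapped, and the log2 fold change was 0.32 ± 0.32 (SE; edgeR adjusted p = 0.464). Within a library, the class I rows held between 9.23 and 11.3 counts per count of B2m in pool A and between 24.8 and 32.5 in pool B. This ratio does not depend on the scaling of the libraries.

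Of the peptide transporter genes, Tap1 was called and Tap2 was not. Tap1 (ENSRNOG00000000457) was higher with pool A, with 32.0, 30.5 and 47.7 CPM against 18.4, 9.86 and 24.97 CPM in pool B. In the fit the log2 fold change was 1.15 ± 0.30 (SE; edgeR adjusted p = 0.00266). Tap2, which encodes the other subunit, had 3.26, 2.37 and 3.14 CPM in pool A and 8.86, 7.12 and 7.94 CPM in pool B. All pool B libraries lay above all pool A libraries, but the counts were few, between 6 and 26, and the log2 fold change of -1.29 ± 0.59 (SE) did not pass the threshold (edgeR adjusted p = 0.0868). There were between 9.83 and 15.2 counts of Tap1 per count of Tap2 in pool A and between 1.38 and 3.14 in pool B. No pool A library of Tap2 reached the filter level, so its separate ranges and this ratio are a description only. The difference between these genes was not tested.

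Tapasin and the chaperones of the loading complex were mostly recovered more with pool A. Pdia3 (ENSRNOG00000015018) had 285, 234 and 215 CPM in pool A and 116, 112 and 106 CPM in pool B. The lowest pool A library was well above the highest pool B library, and the log2 fold change was 1.28 ± 0.15 (SE; edgeR adjusted p = 8.21e-08). Calr, a lectin chaperone that holds the peptide-receptive class I molecule, had 115, 114 and 126 CPM in pool A and 89.6, 83.8 and 56.8 CPM in pool B. In the fit the log2 fold change was 0.77 ± 0.17 (SE; edgeR adjusted p = 0.000756). Tapbp, which encodes tapasin, the bridge between transporter and heavy chain, had 30.1, 23.3 and 27.9 CPM in pool A and 14.7, 15.3 and 19.3 CPM in pool B. In the fit the log2 fold change was 0.87 ± 0.29 (SE), and its edgeR adjusted p of 0.0186 became 0.0796 without pool A replicate 1, 0.0572 without pool B replicate 1 and 0.0522 with total counts alone.

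Canx went the other way. Calnexin, its product, is the membrane-bound relative of calreticulin and handles new heavy chains before loading. Its RNA had 469, 394 and 468 CPM in pool A and 669, 557 and 674 CPM in pool B. The log2 fold change was small, -0.37 ± 0.13 (SE; edgeR adjusted p = 0.0242). The call was lost with upper-quartile factors and in 4 of the fits that left out a library (replicates 2 and 3 of pool A, 1 and 3 of pool B), with an adjusted p up to 0.143. Counts of Pdia3 per count of Canx were between 0.458 and 0.607 in pool A and between 0.158 and 0.200 in pool B. Erap1, the aminopeptidase that trims peptides in the endoplasmic reticulum, overlapped between the pools, with 5.43, 4.35 and 8.47 CPM against 12.6, 7.67 and 3.78 CPM.

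**Figure D3:**
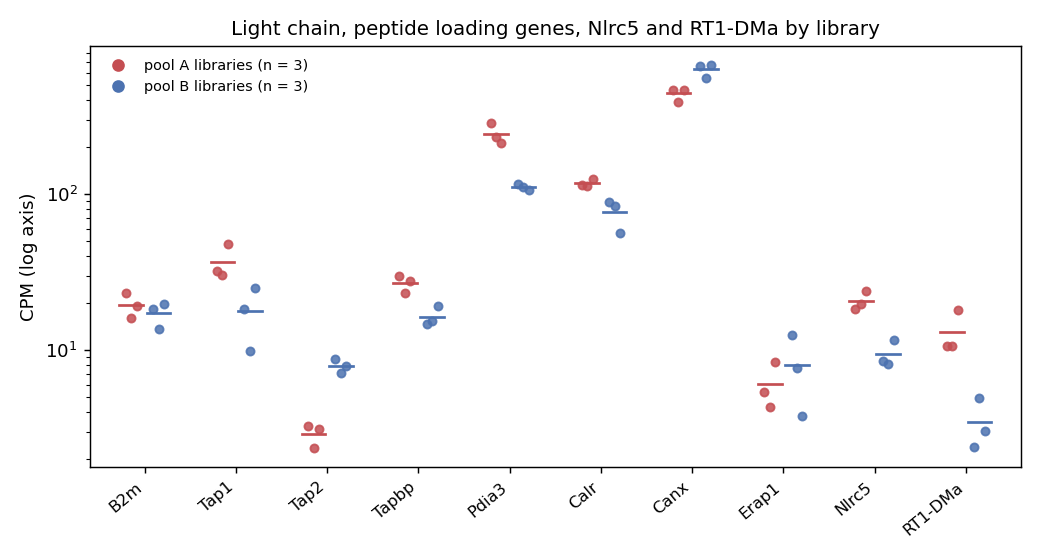
CPM of B2m, the peptide loading genes, Nlrc5 and RT1-DMa in each library, on a log axis, with a short bar at the mean of the 3 libraries of a pool. Pdia3, Calr, Tap1, Tapbp, Nlrc5 and RT1-DMa lie higher in pool A, Tap2 and Canx lie higher in pool B, and B2m and Erap1 overlap.

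**Figure D4:**
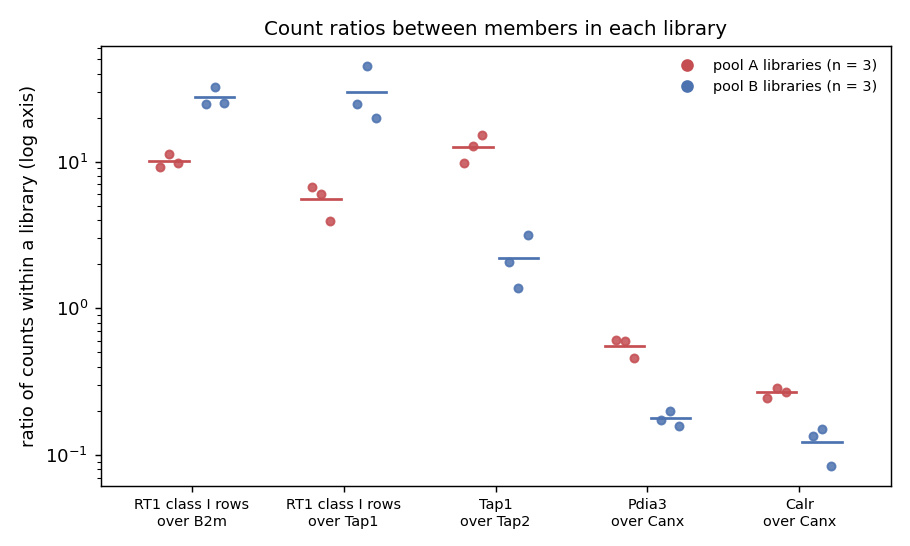
Ratio of counts between members within each library, on a log axis, with a bar at the mean of the 3 libraries of a pool. Ratios of the class I rows to B2m and to Tap1 lie higher in pool B, and those of Tap1 to Tap2, Pdia3 to Canx and Calr to Canx lie higher in pool A, with no overlap in any of the 5 pairs. Tap2 passed the expression filter through pool B.

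Nlrc5, the transactivator of class I genes, was higher with pool A, in contrast to the heavy chain rows. It had 18.4, 19.8 and 23.8 CPM in pool A and 8.52, 8.21 and 11.7 CPM in pool B. The pools did not overlap, and the log2 fold change was 1.25 ± 0.36 (SE; edgeR adjusted p = 0.00575). Ciita, the class II counterpart of Nlrc5, had at most 2 counts in a library.

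Class II was close to absent at this depth, apart from RT1-DMa. RT1-Ba, RT1-Bb, RT1-Db1 and RT1-Db2, chains of the peptide-presenting class II molecules, had no count in any library, and RT1-Da had at most 1. RT1-DOa, RT1-DOb and RT1-DMb had at most 2, 6 and 3 counts, RT1-Ha between 4 and 13, and Cd74 at most 3. RT1-DMa (ENSRNOG00000047864), the alpha chain of the DM exchange factor, had 39, 27 and 58 counts in pool A and 7, 9 and 8 in pool B. This was a log2 fold change of 2.10 ± 0.52 (SE; edgeR adjusted p = 0.00185), and it was 1.86 with an adjusted p of 0.0207 without pool A replicate 3, its highest library. Summing the 10 class II rows gave 0.99 ± 0.41 (SE) on the log2 scale and did not pass the threshold (edgeR adjusted p = 0.0532), but it did with DESeq2 (0.0483), with DESeq2 size factors (0.0495), with upper-quartile factors (0.0321) and under a stricter filter of 10 counts per library (0.0255). Without RT1-DMa the mean was lower in pool A, with 5, 9 and 6 counts in pool A and 19, 10 and 9 in pool B over the remaining 9 rows, which were too few for the test and overlapped in CPM. The direction of the class II sum thus rests on RT1-DMa. RT1-Ha, which had 4, 7 and 6 counts in pool A and 13, 7 and 8 in pool B, held most of the rest.

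Leukocyte markers did not move together. Of 16 such markers in the table, 3 were at 0 in all libraries (Ms4a1, Laptm5 and Cd3e), 5 were tested and 1, Fcer1g, was called. This was 20% of those tested, against 40.6% of all tested genes, 18.6% being higher with pool A. Fcer1g had 39, 16 and 90 counts in pool A and 10, 10 and 7 in pool B, and its edgeR adjusted p of 0.00253 became 0.109 without pool A replicate 3. It reached the filter level in every pool A library but not in every pool B library. The filter thus favoured this direction, and the call of Fcer1g is a description only. The other 4 tested markers were not called, with log2 fold changes of 0.25 for Coro1a, -0.09 for Csf1r, -0.10 for Cd4 and -0.44 for Cd68. Ptprc, which encodes the common leukocyte antigen, had 6, 1 and 18 counts in pool A and 0 in each pool B library. The summed level of the list was between 41.5 and 79.4 CPM in pool A and between 44.3 and 53.1 CPM in pool B, and the 7 endothelial and fibroblast markers in the table summed to between 17.6 and 24.5 CPM and between 9.54 and 17.8 CPM. The part of such RNA in the values of RT1-DMa, Tap1 and the other genes higher with pool A was not tested. In these bulk libraries, more RNA per cell and RNA from more cells cannot be told apart.

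Other genes of the pathway were read from the same fit. Of 25 further genes of antigen processing, 18 were tested, with 5 calls in favour of each pool and a median log2 fold change of 0.25. In all 55.6% were called, against 40.6% of all tested genes (18.6% for pool A and 22.0% for pool B). Higher with pool A were Ifi30, a lysosomal thiol reductase (2.07 ± 0.22, SE), Thop1, a peptidase that degrades peptides in the cytosol (1.51 ± 0.20), the immunoproteasome subunit Psmb10 (1.43 ± 0.28) and the protease Lgmn (1.26 ± 0.45). Lgmn had 37, 24 and 109 counts in pool A and 24, 14 and 22 in pool B, and without pool A replicate 3 it was 0.48 with an edgeR adjusted p of 0.513. Its call was also lost without any 1 of the pool B libraries, with limma-voom and with the replicate block (adjusted p = 0.0624). Higher with pool B were Ctsl, a lysosomal cathepsin (-3.61 ± 0.14), Ctsd, a further cathepsin (-1.29 ± 0.28, and -1.88 without pool A replicate 1), Ganab, which trims glucose from new glycoproteins (-0.97 ± 0.13), and Tapbpl, the tapasin-related editor of class I peptides (-0.90 ± 0.21). Psmb8 and Psmb9, the other immunoproteasome subunits, did not pass the threshold, at 0.45 ± 0.49 and 0.92 ± 0.44, though Psmb8 did without pool B replicate 1 (1.40, adjusted p = 0.0473) and Psmb9 did among rows of at least 10 counts per library (adjusted p = 0.0414).

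Of 28 genes of MHC transcription and interferon signalling, 23 were tested, with 2 calls in favour of pool A and 10 in favour of pool B. In all 52.2% were called, against 40.6% of all tested genes (18.6% for pool A and 22.0% for pool B). The median log2 fold change of the 23 genes was -0.33. Higher with pool B were the NF-kappa B subunit Rela (-1.66 ± 0.29, SE), the interferon regulatory factors Irf3 (-1.49 ± 0.14) and Irf1 (-1.36 ± 0.22), and Rfxank, a subunit of the complex that binds the X box of MHC promoters (-1.19 ± 0.22). Higher with pool A were Nfyb, a subunit of the factor that binds CCAAT (1.99 ± 0.17), and Nfkb1 (0.51 ± 0.18), whose call was lost with total counts alone and in 3 of the fits that left out a library (replicate 1 of pool A, 1 and 2 of pool B; adjusted p up to 0.137). Irf3 had 467, 342 and 511 counts in pool A and 1154, 790 and 1266 in pool B, while Nfyb had 611, 486 and 596 against 135, 112 and 121.

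Genes of other function that lie in the MHC region were called at a share near that of all tested genes. Of 79 listed, 76 were in the table and 65 were tested. The calls were 12 in favour of pool A and 19 in favour of pool B, 47.7% in all. Of all tested genes 40.6% were called, 18.6% in favour of pool A and 22.0% in favour of pool B. The median log2 fold change of the 65 genes was 0.05, against 0.02 for all tested genes. The largest differences were those of Lsm2, an RNA-binding Sm-like protein gene (4.36 ± 0.24, SE), and the RNA helicase gene Ddx39b (3.0 ± 0.14) in favour of pool A, with Slc44a4 (2.07 ± 0.34) and Rpp21 (1.67 ± 0.37) after them. In favour of pool B they were those of Zbtb22 (-2.82 ± 0.23), Abhd16a (-2.12 ± 0.20), Egfl8 (-2.07 ± 0.29) and Ring1 (-2.05 ± 0.15).

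**Figure D5:**
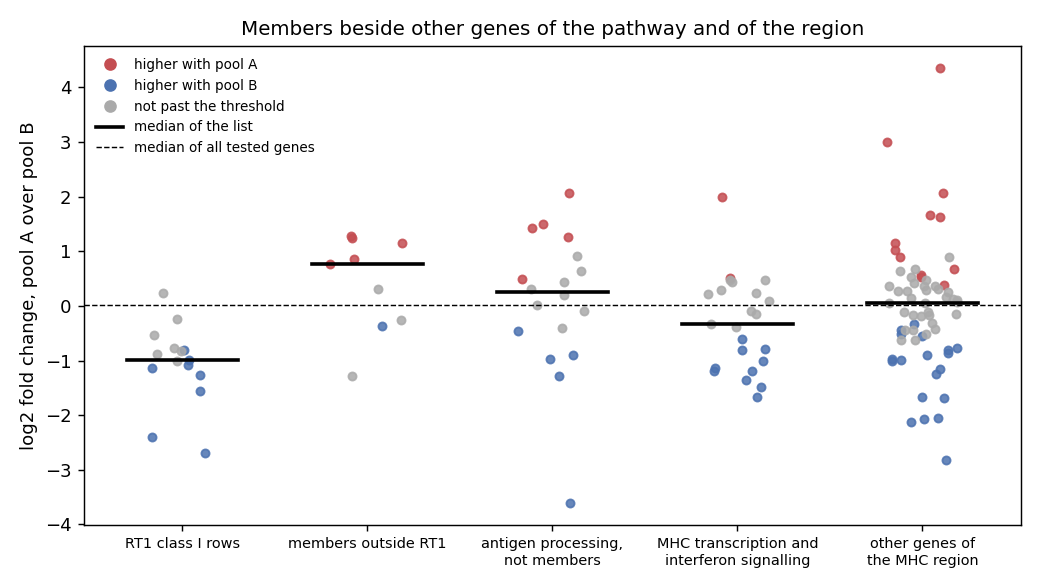
Log2 fold change (pool A over pool B, vertical axis) of each tested gene in 5 lists, one point per gene, with a thick bar at the list's median and a dashed line at the median of all tested genes. The 15 tested class I rows, 5 of which passed the filter through pool B, centre on -0.99, the members outside RT1 on 0.77, and the other genes of the MHC region on 0.05 with points on both sides.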

How the data were processed

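RNA retrieved by pull-down from 6 libraries was measured as strand-specific paired reads of 150 bases, per the labels' protocols. The authors deposited raw counts per gene in whole numbers; STAR and featureCounts are named in the submitters' processing notes without versions, and the genome build, annotation, strand setting and treatment of reads with several matches are not given in the sources used here. The table also holds the authors' mean per pool, checked to be their plain average in all 32883 rows and not used further.

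The test was edgeR 4.0.16 run under R 4.3.3 (TMM scaling, edgeR's expression filter, quasi-likelihood test, Benjamini-Hochberg adjustment over all tested genes). P-values are two-sided, and each SE is the log2 fold change divided by the root of F. Class sums replaced their rows before the fit. In simulated counts over 11565 tested genes, 95.9% of 4-fold and 41.2% of 2-fold changes were recovered, and 4.96% of calls were false. That simulation changed only a small set of genes and gave every gene the same dispersion. In the data 40.6% of tested genes were called, so these rates need not hold for them. Alternatives were other scalings, filters and tests (DESeq2 1.42.0, limma-voom 3.58.1), a replicate block and leaving out each library. Upstream sequences came from RefSeq's GRCr8 table, with 34 of 41 members matched by symbol. The members, lists and tests were chosen with earlier results of these data known. All tested members are described, and of each other list up to 4 called genes per direction by size of change with a mean of at least 10 counts. Deviations of same-numbered libraries from their pool means correlated at 0.041, -0.0203 and 0.0194, and the numbers were therefore not treated as pairing libraries. Between libraries of a pool the chi-square per degree of freedom over genes was 5.86 to 20.7, above counting noise.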

Additional observations from a re-analysis of the deposited data

How the results depend on the processing

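Of 353 refits of the 25 tested genes, 316 kept their direction and side of the threshold, 28 lost a call and 6 gained one. The other 3 turned direction in uncalled genes: Erap1 to 0.26 without pool B replicate 1 (range over the left-out libraries -0.61 to 0.26), and RT1-S3 to 0.09 (pool A replicate 3 left out) and 0.36 (pool B replicate 1 left out; range -0.97 to 0.36). Pdia3, Calr, Tap1, Nlrc5, RT1-DMa, RT1-T24-1, RT1-N3 and RT1-A2 kept their call in each refit that tested them. Without a library, members higher with pool A numbered 5 to 6 and those higher with pool B 4 to 9, the lowest without pool A replicate 3; fewer libraries were then fitted. The class I sum ranged from -1.24 to -0.93 over all alternatives, the last without RT1-T24-1, an alternative chosen after seeing the data. The class II sum passed the threshold with DESeq2 size factors (1.01), upper-quartile factors (1.10), at least 10 counts in every library (1.01) and the DESeq2 test (1.01), and lay between 0.82 and 1.15 in fits without 1 library. The cause of these shifts was not tested. With the replicate number as a block, the members' calls were 6 for pool A against 8 for pool B, and RT1-CE5 (adjusted p = 0.0559) lost its call; genes outside the members that did so include Lgmn, Gtf2h4, Nelfe and Vars. Of 390 refits of 28 named genes outside the members, 376 kept direction and side, 11 lost a call, 2 gained one, and the uncalled Psmb8 turned to -0.042 without pool B replicate 3 (range without 1 library -0.042 to 1.40). Total counts alone moved the median of all tested genes to -0.12 and upper-quartile factors to 0.12. Counts under about 20 per library limit statements on single RT1 rows.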

Other observations

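Rows without a gene symbol next to the RT1 rows were looked at after the values of the RT1 rows had been seen. Of 28 rows with clone-based or LOC names within 2 rows of an RT1 row in the table, 9 were tested, 6 were higher with pool B past the threshold in edgeR and 0 higher with pool A, against 22.0% and 18.6% of all tested genes. Of these 6, AABR07044364.1, AABR07044415.1 and LOC103689996 reached the filter level in every pool B library but not in every pool A library, so the filter favoured their direction and the count is a description only. The other 3, AC108572.2, LOC108348072 and AABR07044414.1, were not called and had log2 fold changes of 0.28, 0.60 and 0.54. AABR07044362.1, 2 rows before RT1-N2 in the table, had 108, 78 and 136 counts in pool A and 264, 103 and 198 in pool B. LOC103689996, 2 rows before RT1-DMb, had 22, 5 and 34 counts in pool A and 90, 49 and 71 in pool B. Whether these rows are further class I copies that share reads with the named ones was not tested.

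Hfe, a class I-like gene of iron control, was not tested for want of counts but had 20, 11 and 10 counts in pool A and 1, 3 and 0 in pool B. It was named after its values were seen.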
